A study of Mus musculus with 2 samples.

Results

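Collagen chain genes were compared between a pool of fast and a pool of slow skeletal muscle fibres of the mouse. The chains were taken by symbol (Col, a number, a and a number) through the RefSeq accessions of the array's probes. This gave 44 genes of 23458 with a named probe, namely 11 fibrillar chains, 8 chains of the basement membrane (types IV, XV and XVIII) and 25 other chains. Of 70 probes for these chains, the brightest by mean signal stood for each gene, and 23 chains had more than 1 probe. Gene expression was measured on 2 arrays of 1 colour, 1 for each pool, each labelled from 0.1 µg of total RNA. Both pools came from hind limb muscles of 8 male mice, aged 6 to 8 weeks and heterozygous for GFP-Myh7 (G/+), an allele that makes fibres with slow myosin fluoresce. The fast pool held 4447 fibres without GFP from the EDL (extensor digitorum longus), and the slow pool held 1659 fibres with GFP from the soleus. Fibre type and muscle of origin therefore cannot be told apart, and the tissue given for the slow pool in the labels is the EDL, although its source and the protocol give the soleus.

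Collagens are extracellular proteins made of triple helices of 3 chains. Fibrillar collagens assemble into the fibrils of tendon and of the connective tissue around muscle fibres, type IV chains form the sheet-like network of the basement membrane that wraps each fibre, and other classes decorate fibrils, link them to the basement membrane or sit in cell membranes. In skeletal muscle most fibrillar collagen is made by fibroblasts between the fibres, while basement membrane chains come from several cell types, the fibre among them.

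Each array gave a processed signal per probe, a linear intensity after background subtraction. A probe counted as measured where the scanner software called it well above background, which held for 52.3% (fast) and 50.9% (slow) of spots. Differences are slow minus fast on the log2 scale after each array was set to its 75th percentile (a signal of 179.1 fast and 191.7 slow), which lowers each raw difference by 0.10. The labels held in direction at the 6 fibre type genes, 4 higher in the fast pool and 2 in the slow pool. The slow pool still gave signal for fast-type genes, with Myh2 at 36999 (fast) and 11054 (slow) and Tnni2 at 303991 and 11294. Myh7, the slow myosin heavy chain, had a signal of 1094 in the fast pool and 316863 in the slow pool, and Myh4, the myosin of the fastest fibres, 160781 and 57.9. With 1 pool and 1 array for each group there was no replicate check and no test between the groups. The number of arrays limits the precision, so a difference of at least 2-fold was taken as the size to report.

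Most measured collagen chains gave more signal in the fast fibre pool. Of the 44 chains, 27 passed that background call on both arrays, and 17 of these (63.0%) were at least 2-fold higher in the fast pool, against 12.7% of the 12846 genes measured on both arrays. In the slow pool 3 of the 27 chains (11.1%) were at least 2-fold higher, against 9.47% of genes, a share near the background. The median difference of the 27 chains was -1.61, a 3.04-fold higher signal in fast fibres, where that of all genes measured on both arrays was 0.05. A further 6 chains were well above background in the fast pool only and 2 in the slow pool only. Such a chain passes the filter through the pool where it is bright, so its difference is given as a bound. Bounds, written as at least, are approximate, since some probes brighter than the dimmest measured probe failed the background call. With these bounds, 20 of 35 chains were at least 2-fold higher in the fast pool and 5 in the slow pool, beside 14.3% and 10.8% of the 14644 genes detected on 1 array or both. The software error of a difference, which covers the spot and not the animals, ran from 0.20 to 0.35 over the 27 chains.

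**Figure D1:**
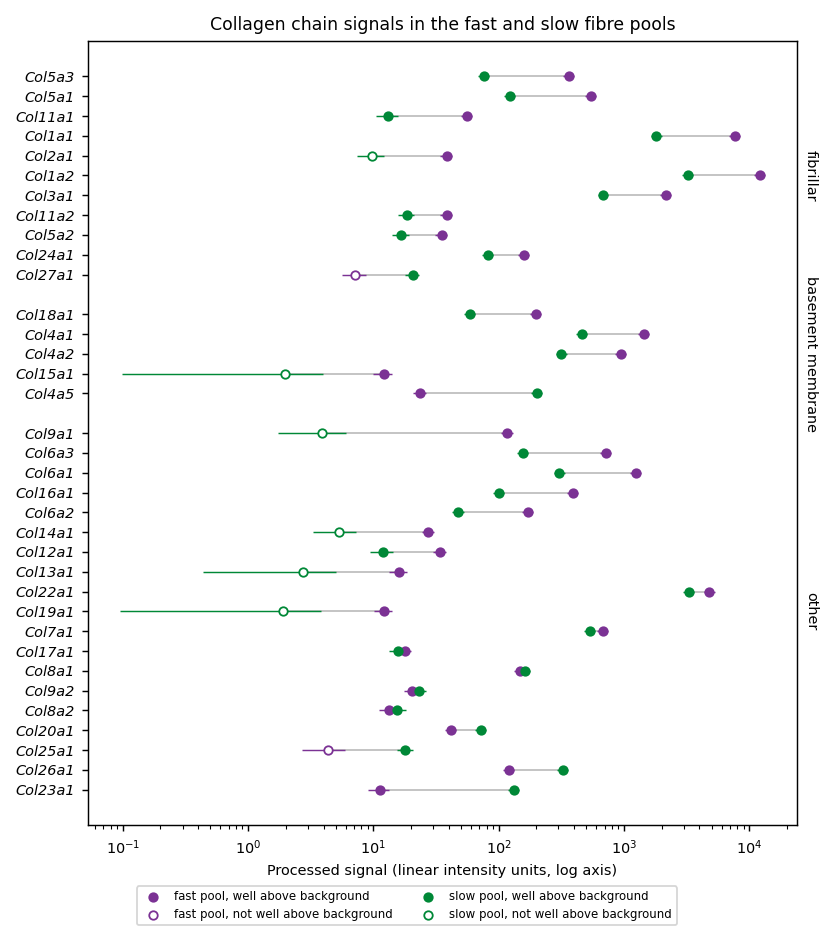
Processed signal of the 35 collagen chains well above background on at least 1 array, on a log axis, with 1 row for each chain grouped by class; purple points are the fast pool, green points the slow pool, open points are not well above background, and bars are the software error, shortened on the left where it reaches the signal itself. Col1a2 lay at 12065 for fast and 3253 for slow fibres, whereas Col4a5 and Col23a1 had their brighter point in the slow pool.

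The fibrillar class was higher in the fast pool as far as it was measured on both arrays. All 9 such chains were past 2-fold in that direction, with a median difference of -1.99 (3.97-fold) and a range from -2.35 to -1.04. In the basement membrane class 3 of 4 chains measured on both arrays were higher in the fast pool and 1 in the slow pool, with a median of -1.71. The other chains were mixed. Of 14 measured on both arrays, 5 (35.7%) were higher in the fast pool and 2 (14.3%) in the slow pool. The remaining 7 lay within 2-fold, and the class had a median of -0.36 and a range from -2.30 to 3.48. Among all genes measured on both arrays these shares were 12.7% and 9.47%, so the slow-pool share was near the background. The basement membrane counts rest on 4 chains, too few to set beside these shares.

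**Figure D2:**
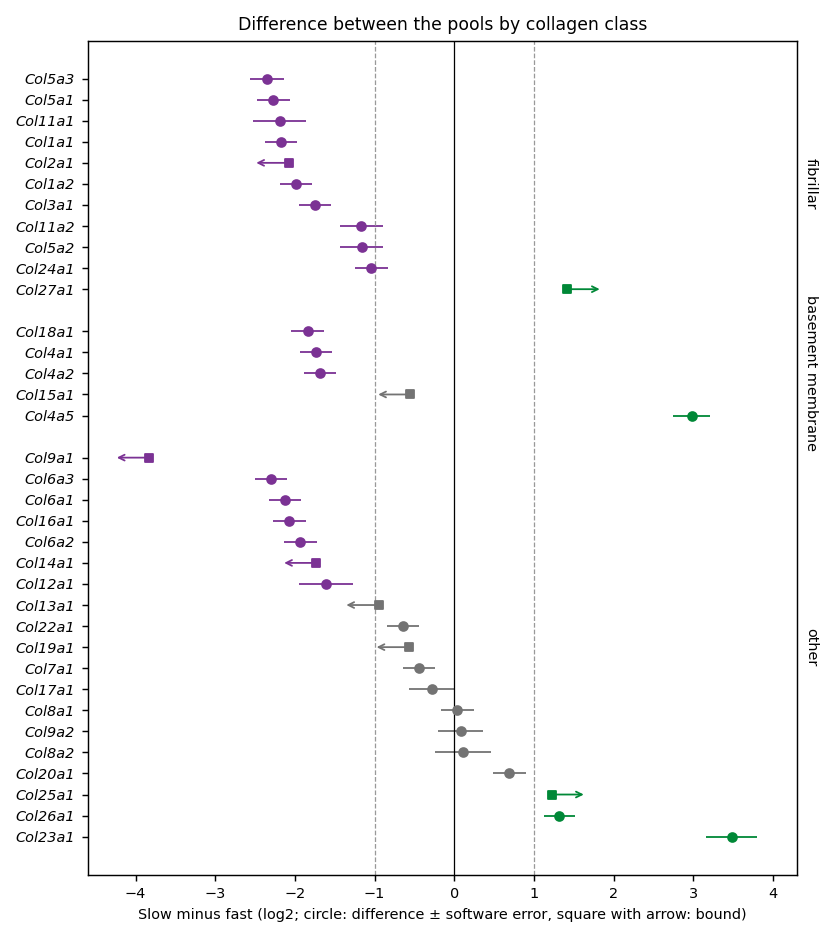
Slow minus fast difference (log2) of the same 35 chains by class; circles with bars are differences with their software error, squares with arrows are bounds, dashed lines mark 2-fold, and purple, green and grey stand for higher in fast, higher in slow, and either within 2-fold or a bound under 2-fold. The 9 fibrillar chains with circles run from -2.35 to -1.04, all left of the dashed line, while Col4a5 at 2.98 and Col23a1 at 3.48 lie far to the right.

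Type I collagen, the main fibril of tendon and muscle connective tissue, is built from the Col1a1 and Col1a2 chains. Col1a1 had a signal of 7665 in the fast pool and 1812 in the slow pool, a difference of -2.18 ± 0.20 (software error) or 4.53-fold. The 2 other Col1a1 probes were printed several times on each array, and their differences of -2.07 ± 0.05 (SD, 9 spots) and -2.04 ± 0.06 (SD, 10 spots) lay close to it. Such repeats share the labelled RNA, so they measure the spread between spots of 1 array. Col1a2 had 12065 in the fast pool and 3253 in the slow pool, 3.97-fold higher in fast fibres. Col3a1, the single chain of type III collagen that forms thinner fibrils alongside type I, had 2145 and 683, a 3.36-fold difference in the same direction. The 3 main fibril chains thus lay between 3.36-fold and 4.53-fold higher in the fast pool. The stretches of 250 bases before the RefSeq transcription starts of Col1a2 (chr6:4505368-4505617, plus strand) and Col3a1 (chr1:45311288-45311537, plus strand, both GRCm38.p6) are given as examples. Capitals mark matches to GGGCGG (a GC box), the CCAAT box and the TATAAA box.
Col1a2: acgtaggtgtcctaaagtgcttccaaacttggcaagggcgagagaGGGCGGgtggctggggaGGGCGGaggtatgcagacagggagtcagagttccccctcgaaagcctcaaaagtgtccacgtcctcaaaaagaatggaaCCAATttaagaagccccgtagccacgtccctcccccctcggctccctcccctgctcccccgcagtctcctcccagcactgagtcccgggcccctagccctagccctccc
Col3a1: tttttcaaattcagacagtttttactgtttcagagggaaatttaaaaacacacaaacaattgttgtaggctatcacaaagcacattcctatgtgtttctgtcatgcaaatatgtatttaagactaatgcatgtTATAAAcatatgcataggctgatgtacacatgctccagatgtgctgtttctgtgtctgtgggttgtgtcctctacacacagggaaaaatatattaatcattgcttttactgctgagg
The Col1a2 stretch was 62.0% G and C, with 2 GC boxes starting 205 and 188 bases before the start and a CCAAT box at 109, and the Col3a1 stretch was 35.2% G and C with only a TATAAA match, at 117. Col3a1 had the lowest such content of all collagen windows. The median over windows of chains higher in the fast pool was 60.6%, so this pair does not stand for the other chains.

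Type V chains start type I fibrils and limit their width, and type XI chains do the same in cartilage. Col5a1 had a signal of 547 in the fast pool and 122 in the slow pool (4.82-fold). Col5a3 had 365 and 76.4 (5.11-fold), the largest difference among fibrillar chains measured on both arrays. Col5a2, the partner chain of Col5a1 in the common form of type V, had 35.01 and 16.7 (2.24-fold). All 3 type V chains were thus brighter in the fast pool, Col5a2 by the smallest margin. Col11a1 had 55.7 and 13.1 (4.56-fold) and Col11a2 38.5 and 18.4 (2.24-fold). Col24a1, a fibrillar chain known from bone, had 158 and 82.1 (2.06-fold), the fibrillar difference nearest to 2-fold. Col5a2, Col11a2 and Col24a1 fell within 2-fold when arrays were set by spike-in controls, with differences of -0.74, -0.75 and -0.63. Under normexp, another background correction, these 3 and Col11a1 fell within 2-fold, and Col11a1 stood at -0.70 with quantile normalization. The median over both Col11a1 probes, of which the other was well above background in neither pool, was -0.99.

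Both fibrillar chains with a bound are known from cartilage, and they went opposite ways. Col2a1, the type II chain, had 38.5 in the fast pool and 9.77, not well above background, in the slow pool, higher in the fast pool by at least 4.22-fold. Col27a1 had 7.19, not well above background, in the fast pool and 20.6 in the slow pool, higher in the slow pool by at least 2.67-fold. The lowest signal called well above background was 7.21 on the fast array, and 8.81 on the other. Under normexp both fell within 2-fold, at -0.53 and 0.28 with quantile normalization.

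The basement membrane class split within type IV. Col4a1 and Col4a2, the chains of the network found in nearly every basement membrane, had signals of 1433 and 948 in the fast pool and 459.6 and 317 in the slow pool. Both were higher in fast fibres, by 3.34-fold and 3.20-fold. Their genes lie head to head on mouse chromosome 8, and their RefSeq promoter windows, which also run a short way past each start, share 78 bases. The distance from the Col4a1 start to the Col4a2 start was -21 bases. The RefSeq transcripts thus overlap at their starts, and none of the 78 bases lies before both starts. Col4a5, a chain of the second type IV network best known from kidney, where its loss causes Alport syndrome, had 23.6 in the fast pool and 200.4 in the slow pool. It was 7.92-fold higher in slow fibres, a difference of 2.98 ± 0.23 (software error), and its other probe, well above background in the slow pool only, gave 6.56 and 16.6. Col4a6, the head-to-head neighbour of Col4a5 on the X chromosome with starts 1343 bases apart, was well above background in neither pool, nor were Col4a3 and Col4a4. The 250 bases before the Col4a5 start (chrX:141475169-141475418, plus strand, GRCm38.p6) are shown because this chain alone of the basement membrane class was higher in slow fibres.
Col4a5: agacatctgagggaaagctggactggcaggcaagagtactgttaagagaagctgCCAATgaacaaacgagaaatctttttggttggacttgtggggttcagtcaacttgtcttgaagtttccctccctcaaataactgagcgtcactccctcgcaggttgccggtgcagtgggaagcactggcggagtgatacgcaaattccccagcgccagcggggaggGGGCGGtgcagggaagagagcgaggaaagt
A CCAAT match began 196 bases and a GC box 30 bases before the start.

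Types XV and XVIII are basement membrane collagens with interrupted helices, and the end of the type XVIII chain is released as endostatin. Col18a1 had 197 in the fast pool and 58.8 in the slow pool, 3.59-fold higher in fast fibres, much like Col4a1. Col15a1, abundant in the capillary and muscle basement membrane zone, was dim here, at 12.05 in the fast pool and 1.97, not well above background, in the slow pool. Its difference was at least 1.46-fold, a bound that does not show whether it passed 2-fold.

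Type VI collagen forms beaded filaments that connect the basement membrane with the surrounding matrix, and mutations of its 3 main chains cause Ullrich and Bethlem muscle disease. Col6a1 had a signal of 1236 in the fast pool and 305 in the slow pool (4.33-fold). Col6a2 had 170 and 47.6 (3.82-fold), and Col6a3 had 719 and 156 (4.93-fold). All 3 chains, which join in 1 molecule, were higher in the fast pool by similar factors, with a median difference of -2.12. The alternative chains Col6a4, Col6a5 and Col6a6 were well above background in neither pool. Without type VI, the median of the other chains measured on both arrays was 0.04. Of the 14 chains of that class measured on both arrays, 8 lay below 0 and 6 above. Leaving out any 3 of the 8 would have made the median positive, so this shift is not particular to type VI.

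Chains that attach to the surface of fibrils ran from large differences to none. Col16a1 had 393 in the fast pool and 100.03 in the slow pool (4.21-fold), and Col12a1, a chain of tendon and muscle connective tissue, had 33.8 and 11.9 (3.04-fold). Col14a1, a relative of Col12a1, had 27.4 in the fast pool and 5.28, not well above background, in the slow pool, at least 3.32-fold. Under normexp with quantile normalization Col12a1 and Col14a1 fell within 2-fold, at -0.45 and -0.41. Col9a1, known from cartilage, had 117 in the fast pool and 3.89, not well above background, in the slow pool and was thus higher in the fast pool by at least 14.3-fold, the largest bound among the chains. That value rests on 1 probe, since the other Col9a1 probe was well above background in neither pool. The median over both probes also gave a bound, of -0.69. Col9a2, a partner chain of the same molecule, had 20.3 and 22.98, and Col9a3 was not well above background.

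Most further chains of the fibril surface and of other kinds lay within 2-fold. Col22a1, which marks the junction of muscle and tendon, was bright in both pools at 4809.6 and 3315, 1.55-fold higher in fast fibres, and its dimmer probe gave a difference of -0.46. Col19a1 had 12.2 in the fast pool and 1.9, not well above background, in the slow pool, at least 1.49-fold, a bound that leaves its place beside 2-fold unknown. Col20a1 had 41.6 and 71.9, 1.62-fold higher in slow fibres, and it passed 2-fold with spike-in scaling at a difference of 1.11. Col8a1 and Col8a2, chains of short network-forming collagens of blood vessels and the cornea, had 147 and 162, and 13.4 and 15.5. Col7a1, the anchoring fibril chain of skin, had 678 and 537 (1.35-fold higher in fast fibres). Col22a1 and Col7a1 were thus far above background in both pools and differed by less than 2-fold.

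Among the chains outside the fibrillar and basement membrane classes, those past 2-fold toward the slow pool were Col23a1, Col25a1 and Col26a1. Col23a1, a membrane-spanning collagen, had a signal of 11.2 in the fast pool and 133 in the slow pool, 11.2-fold higher in slow fibres, a difference of 3.48 ± 0.32 (software error). Its 2 other probes were well above background in the slow pool only, with signals of 9.22 and 77.4, and of 1.95 and 11.6. Each of the 3 Col23a1 probes was thus brighter in the slow pool. Col25a1, a membrane-spanning chain needed for motor axons to enter muscle, had 4.32, not well above background, in the fast pool and 17.97 in the slow pool, at least 2.33-fold. Under normexp with quantile normalization its difference was 0.32, within 2-fold. Its other probe, at 1.77 and 2.17, was well above background in neither pool. The median over both probes gave a bound on the wrong side of 0, which was set to 0, so that 0 is not a measured difference. Col26a1 had 121 and 325 (2.50-fold), and a second probe gave 119 and 296. The dimmest of its 3 probes gave 14.9 and 15.2, a difference of -0.08, so the probes of Col26a1 disagreed. The 2 other membrane-spanning chains were not called toward the slow pool. Col13a1, a collagen of the neuromuscular junction, had 15.9 in the fast pool and 2.74, not well above background, in the slow pool, at least 1.94-fold and so with a bound short of 2-fold, and Col17a1, of the anchoring plaques of skin, had 17.8 and 15.7 (1.21-fold higher in fast fibres, and 0.14 toward slow fibres on the log2 scale with spike-in scaling). The 250 bases before the start of Col23a1 (chr11:51289670-51289919, plus strand, GRCm38.p6) are given for the chain with the largest slow-fibre difference.
Col23a1: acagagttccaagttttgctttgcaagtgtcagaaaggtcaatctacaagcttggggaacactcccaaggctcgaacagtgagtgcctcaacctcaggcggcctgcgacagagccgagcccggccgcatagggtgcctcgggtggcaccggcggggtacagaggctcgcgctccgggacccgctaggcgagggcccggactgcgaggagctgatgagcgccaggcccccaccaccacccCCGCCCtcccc
Capitals mark a GC box on the opposite strand, 11 bases before the start. Col10a1 and Col28a1 were well above background in neither pool.

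RefSeq promoter windows of GRCm38.p6 were matched by symbol for 35 of the 44 chains, as 38 windows. The 9 chains without a window include Col26a1, which was higher in the slow pool. They also include Col1a1, Col2a1, Col5a2, Col12a1 and Col14a1, which were higher in the fast pool. In the 250 bases before the start, on both strands and counting matches that overlap, GGGCGG occurred in 22 of 38 windows (57.9%), against 32.7% of 32851 windows of all genes. CCAAT occurred in 13 (34.2%, against 33.8%) and TATAAA in 5 (13.2%, against 12.4%). The median content of G and C was 59.0% in the collagen windows and 52.4% in all windows. Of 18 windows of chains past 2-fold toward the fast pool, 10 held GGGCGG and 8 held CCAAT, while each of the 4 windows of chains higher in slow fibres held GGGCGG. The 18 windows stand for 15 genes, of which Col9a1 is a bound. Among the 4, Col25a1 and Col27a1 passed the filter through the slow pool only and fell within 2-fold under normexp. No test compared the directions. These are letter matches, not measured binding sites.

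The genes that make collagen inside the cell had medians near or above 0. Of 13 detected enzymes and partners of prolyl and lysyl modification, 2 were past 2-fold toward the fast pool, 2 toward the slow pool and 9 lay within. These shares (15.4% in each direction) are near those of all detected genes (14.3% and 10.8%). The median was 0.20 over the 12 of them measured on both arrays. P3h3 had a signal of 49.03 in the fast pool and 13.5 in the slow pool (3.88-fold), and Crtap, which acts with prolyl 3-hydroxylase, 243 and 114 (2.28-fold). P3h2, a prolyl 3-hydroxylase of type IV collagen, had 5.46, not well above background, and 190.1 (higher in the slow pool by at least 24.6-fold), and P3h4, a partner in lysyl hydroxylation, had 160.4 and 494 (2.88-fold). These 4 genes are the members past 2-fold, and P3h2 among them is a bound. Among 8 genes of folding and secretion, 6 lay within 2-fold and 2 were higher in slow fibres, with a median of 0.43. The shares were 0% (fast) and 25.0% (slow), against 12.7% and 9.47% of all genes measured on both arrays. The 2 higher in slow fibres were the general chaperones Hspa5, at 10739 and 36556 (3.18-fold), and Pdia3, at 452 and 1241 (2.56-fold).

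Next came the enzymes that trim and crosslink collagen outside the cell. Of 9 such genes, 4 were past 2-fold toward the fast pool, 1 toward the slow pool and 4 lay within, with a median of -0.72. The shares were 44.4% and 11.1%, beside 12.7% and 9.47% of all genes measured on both arrays. Lox, the lysyl oxidase that starts crosslinks, had 256 in the fast pool and 21.6 in the slow pool (12.7-fold), and Pcolce, an enhancer of propeptide removal, had 1156 and 324 (3.82-fold). Adamts14, a propeptide-removing protease, had 69.01 and 262 and was 3.55-fold higher in slow fibres. Lox thus showed a larger difference than any collagen chain measured on both arrays and higher in the fast pool, where Col5a3 reached 5.11-fold.

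Proteins that bind collagen fibrils followed the fibrillar chains in most cases, with exceptions in the opposite direction. Of 13 proteoglycans and glycoproteins, 8 were past 2-fold toward the fast pool, 2 toward the slow pool and 3 lay within (61.5% and 15.4%, against 12.7% and 9.47% of genes), with a median of -1.24. Kera and Fmod, small proteoglycans of fibrils, had 285 and 479 in the fast pool and 61.8 and 123 in the slow pool (4.94-fold and 4.16-fold). Aspn and Ogn, of the same family, had 18.2 and 194 in the fast pool against 395 and 1501 in the slow pool, 20.3-fold and 7.24-fold higher in slow fibres. Among 11 partners of type IV in the basement membrane, 6 were higher in fast fibres, 1 in slow fibres and 4 lay within (54.5% and 9.09%), with a median of -1.46. The linkers Nid1 (500.5 and 143, 3.75-fold) and Nid2 (85.1 and 25.2, 3.61-fold) were higher in fast fibres, while Lama2, the laminin chain of the muscle fibre's basement membrane, had 918 and 4025 and was 4.10-fold higher in slow fibres.

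Of 10 genes of matrix breakdown and its inhibitors measured on both arrays, 8 were past 2-fold toward the fast pool and 2 lay within, with a median of -1.68, against 12.7% of genes. Mmp3 and Mmp14 were well above background in the fast pool only, so they passed the filter there and add no support. Timp3, a metalloprotease inhibitor, had 1476 in the fast pool and 174 in the slow pool (9.08-fold), and Mmp3, a metalloprotease, had 62.3 and 9.05, the second not well above background (at least 7.37-fold). Of 9 collagen receptors, 3 were higher in fast fibres, 1 in slow fibres and 5 lay within (33.3% and 11.1%, against 12.7% and 9.47% of genes), with a median of -0.15. Antxr2 had 209 and 53.9 (4.15-fold) and Itga1, an integrin subunit for collagen, 51.2 and 13.8 (3.97-fold), whereas Antxr1 had 73.9 and 161 (2.03-fold higher in slow fibres). The slow-fibre share of the receptors was near the background. Of 16 genes of TGF-beta signalling, a main inducer of collagen, 3 were higher in each pool and 10 lay within (18.8% in each direction, against the same 12.7% and 9.47%), with a median of -0.10. Tgfb2 (2653 and 541, 5.25-fold) and the microfibril gene Fbn1 (126 and 41.7, 3.25-fold) were higher in fast fibres, and Ltbp2 (15.5 and 52.4, 3.15-fold) and Tgfbr3 (123 and 292, 2.22-fold) in slow fibres.

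Most fibroblast and endothelial markers went the same way as the fibrillar and basement membrane chains, while the lists of other cell types, given further on, were more mixed. Of 12 detected fibroblast markers, 9 stood past 2-fold toward the fast pool and 3 lay within, and the 11 of them measured on both arrays had a median of -1.40. Dpt among the 9 is a bound (34.6 and 8.8, the second not well above background), which leaves 8 of 11 measured on both arrays, where 12.7% of all genes passed. Lum and Dcn of this list also stand among the fibril-binding proteins. The summed level of the list in units of the 75th percentile was 65.6 in the fast pool and 19.3 in the slow pool. Dpp4 and Tcf21 were not well above background. Thy1 had 323 and 74.3 (4.65-fold) and Pdgfra 30.6 and 12.5 (2.63-fold). Of 11 endothelial markers, 10 (90.9%) were higher in the fast pool and 1 lay within, with a median of -1.56 and summed levels of 31.6 and 8.33. Cldn5, a junction protein of endothelium, had 1604 and 115 (14.9-fold), and Cdh5 406 and 134 (3.25-fold). The medians of both lists thus lay past 2-fold on the same side as the fibrillar class (-1.99) and the basement membrane class (-1.71). Those of the tendon (-1.33) and Schwann cell (-1.09) lists did so too, but not those of smooth muscle and pericytes (-0.79) or satellite cells (-0.43). The part of these cells in the result was not tested. In pooled RNA, fewer cells of a type and less RNA per cell cannot be told apart.

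Marker lists of other cell types are given beside the shares of all genes measured on both arrays, 12.7% toward the fast and 9.47% toward the slow pool, and their part was not tested either. Of 7 tendon markers, 4 were higher in the fast pool, 1 in the slow pool and 2 were not called (57.1% and 14.3%), with summed levels of 21.3 and 25.8. The median was -1.33 over the 6 measured on both arrays, and Mkx had a bound of at least 1.14-fold toward the fast pool. Fmod, Thbs4 and Kera, which are 3 of the 4, also stand among the fibril-binding proteins. Tnmd had 84.7 and 32.6 (2.78-fold), while Scx, the tendon transcription factor, had 825 and 3659 and was 4.14-fold higher in slow fibres. Of 7 Schwann cell markers, 4 were higher in the fast pool, 2 in the slow pool and 1 lay within (57.1% and 28.6%, median -1.09, sums 9.40 and 19.8, in which Pmp22 at 817 and 3423 weighs most), with Cdh19 and Gfra3 not well above background. Of 10 markers of smooth muscle and pericytes, 4 were higher in the fast pool, 1 in the slow pool and 5 lay within (40.0% and 10%, median -0.79, with sums of 809 and 730.3 that are nearly all Acta2, at 139689 and 136890.2). Satellite cell markers split into 3 higher in the fast pool and 3 within (50% and 0%, median -0.43, sums 13.8 and 16.9), with Myf5 and Calcr not well above background. Of 5 immune markers measured on both arrays, 2 were higher in the fast pool and 3 lay within (median -0.91), while Ptprc, Adgre1 and Lyz2 were not well above background. Of 9 muscle fibre genes, Casq1 (61691 and 11250.1, 5.87-fold) and Ckm (133232 and 53616, 2.66-fold) were higher in the fast pool, Mb (48496 and 130949.7, 2.52-fold) in the slow pool and 6 lay within (22.2% and 11.1%, median -0.24, sums 4224 and 4120). Of 6 genes of the neuromuscular synapse, 3 were higher in each pool (50% each), with a median of -0.13 and sums of 44.3 and 57.6.

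**Figure D3:**
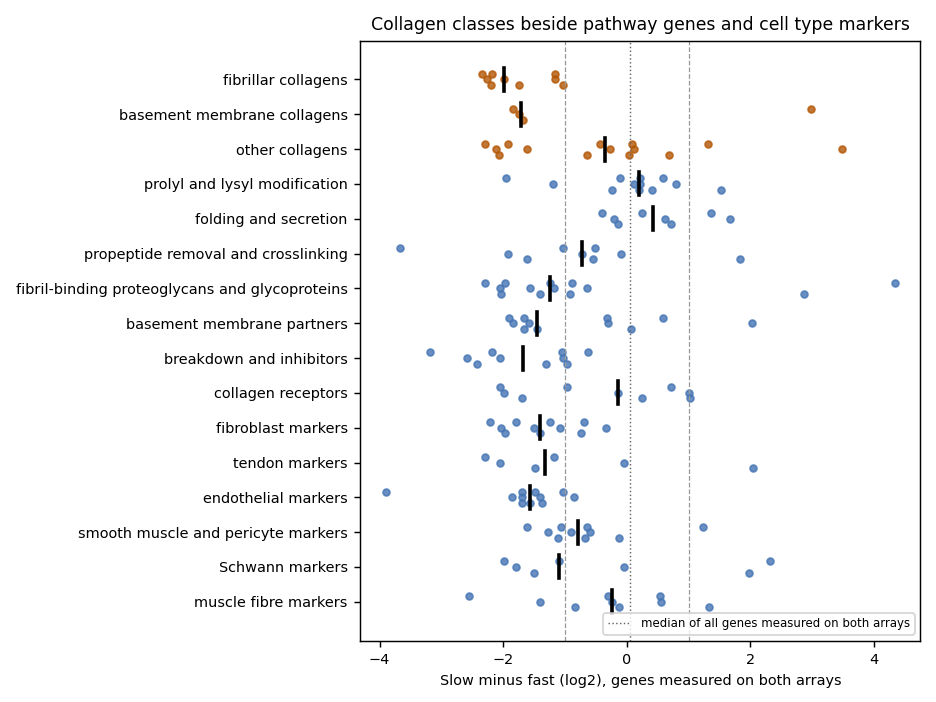
Slow minus fast difference (log2) of genes measured on both arrays, 1 row for each list; points are genes, black bars list medians, the dotted line the median of all genes (0.05) and dashed lines 2-fold. The fibrillar (-1.99), basement membrane (-1.71), breakdown (-1.68), endothelial (-1.56) and fibroblast (-1.40) medians lie left of the dashed line, while prolyl and lysyl modification (0.20) and folding (0.43) lie right of 0. Also left of that line are the medians of basement membrane partners (-1.46), tendon (-1.33), fibril-binding proteins (-1.24) and Schwann cells (-1.09).

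Of the 35 detected chains, 13 were at least 2-fold higher in the fast pool in all 9 settings of scaling and background correction, and 3 in the slow pool. In single settings 6.77% to 16.1% of all detected genes passed toward the fast pool, and 5.29% to 21.3% toward the slow pool. The share of all genes that passed in every setting is not given, so the 3 slow-pool chains are not shown to exceed it. The 13 were Col1a1, Col1a2, Col3a1, Col5a1 and Col5a3 of the fibrillar class, Col4a1, Col4a2 and Col18a1 of the basement membrane, and Col6a1, Col6a2, Col6a3, Col16a1 and Col9a1. Of these, 12 were measured on both arrays, while Col9a1 has a bound, so its place here follows from the filter. The median over its probes gives a bound of -0.69. The 3 were Col4a5, Col23a1 and Col26a1. Their sizes did move with the setting, and Col23a1 ranged from 1.24 to 3.90 and Col4a5 from 1.57 to 3.40, with Col1a1 between -2.29 and -1.76. Spike-in scaling raised every difference by 0.42, and the median of all genes from 0.05 to 0.47, so the small negative medians of the receptor, TGF-beta, muscle fibre and synapse lists turn positive with it. With it the share of slow-higher genes among all genes past 2-fold went from 43.0% to 70.4%. Of the 35 chains, 17 were then past 2-fold toward the fast pool and 6 toward the slow pool. These counts stand beside 8.97% and 21.3% of all detected genes, and the slow-pool count was not above its background.

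**Figure D4:**
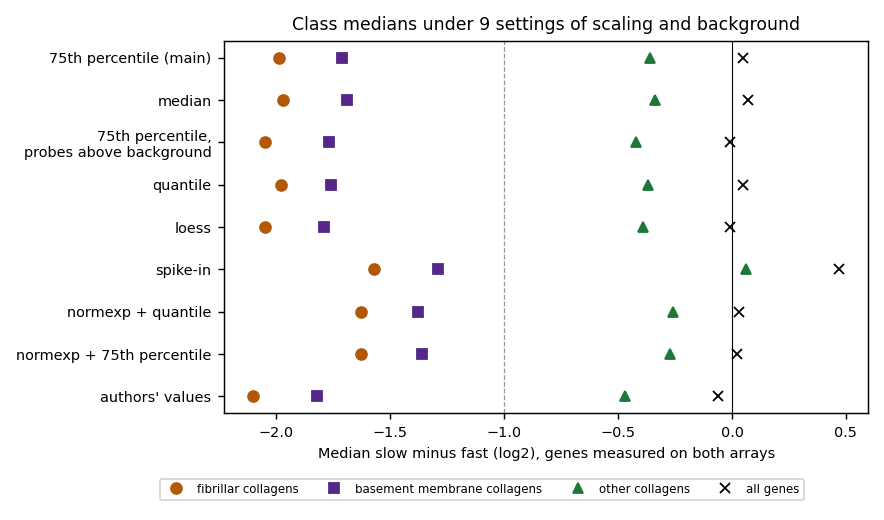
Median slow minus fast difference (log2) of the 3 collagen classes (coloured symbols) and of all genes (crosses) among genes measured on both arrays, 1 row for each of 9 settings; the dashed line marks 2-fold. The fibrillar median stays left of the basement membrane median in each row, and both stay left of the dashed line, while the median of the other collagens moves from -0.36 to 0.06 with spike-in scaling.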

How the data were processed

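The authors' deposited scanner values are linear spot intensities, background-subtracted and detrended within each array by Agilent Feature Extraction 12.0.3.1, per the submitters' processing notes and the file headers, with no normalization between arrays. The authors' deposited value table equalled these intensities times 2.83 (fast) and 2.45 (slow), with column medians of 30.1 and 27.1, no log and no centring, and an unstated scale.

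Control spots and 159 spots flagged as outliers were left out, and repeated spots were averaged. Of 56596 probes, 33763 (59.7%) were named through unversioned accessions in a RefSeq table of GRCm38.p6, since the array design refers to another build. No spot was saturated. The dim side of a bound was the dim signal itself or, where higher, the smallest signal that passed the background call of its array. A bound on the wrong side of 0 was set to 0. Some brighter probes failed that call, such as a Col23a1 probe at 9.22 on the fast array, where the smallest passing signal was 7.21. A bound is therefore approximate. Folds are on the scale of the 75th percentile.

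The members and gene lists were chosen with earlier results of these data known. Each chain well above background is described, and of each other list the 2 largest differences past 2-fold in each direction, with marker genes free to name. Python 3.11.15, pandas 2.3.3, R 4.3.3 and limma 3.58.1 (quantile, loess and normexp with an offset of 50) were used, and scripts were tested on simulated data. Alternatives changed scaling, background correction, value source, dim-probe filter, probe rule, size rule and class membership. A marker gene is not reported here.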

Additional observations from a re-analysis of the deposited data

How the results depend on the processing

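Of 419 values of single chains under alternative settings, 389 kept their side of 2-fold, 24 fell below it and 6 passed it. No chain past 2-fold changed sign. Among the 389, 377 kept their sign, 3 came to 0 and 9, all of Col8a1, Col8a2, Col9a2 and Col17a1, changed sign at sizes of at most 0.14. The 0 of Col13a1 and that of Col19a1, under the median over probes, are bounds set to 0. Spike-in scaling moved the class medians to -1.57 (fibrillar), -1.29 (basement membrane) and 0.06 (other). Normexp with quantile normalization gave 13 chains higher in the fast pool and 3 in the slow pool, with medians of -1.63 (fibrillar) and -1.38 (basement membrane). Normexp with the 75th percentile gave the same 13 and 3 in number, with medians of -1.63 and -1.36. Normexp with quantile normalization also reduced all genes past 2-fold from 2092 to 991 (fast) and from 1575 to 774 (slow), and spike-in scaling gave 1313 and 3126. Of 14644 detected genes these were 6.77% and 5.29% under normexp, and 8.97% and 21.3% under spike-in scaling. Without a filter on dim probes the basement membrane median was -1.23, and the median over probes moved the fibrillar median to -1.75. A 3-fold size left 2 chains higher in the slow pool, where 5.31% of all detected genes passed, and without type VI the median of other chains was 0.04. The causes of these shifts were not tested. No paired analysis was possible because each group has 1 array and the labels carry no replicate numbers. Signal over background limits the dim chains, and the 9 chains that normexp moved within 2-fold had a signal of at most 158 in the brighter pool.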
